A study of Sus scrofa with 6 samples.

Results

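Serine, asparagine, proline and glutamine are amino acids that cells can make themselves, and the enzymes of these routes were examined in the ventricular myocardium of minipigs with descending aortic constriction (DAC). The set was a list of 10 genes taken by name, drawn up with earlier results of these data known: PHGDH, PSAT1, PSPH, SHMT2 and MTHFD2 of the serine, glycine and folate route, ASNS of asparagine synthesis, ALDH18A1 of proline synthesis, GLUL of glutamine synthesis, and the aspartate aminotransferases GOT1 and GOT2. Of these, 9 had a row in the table of 13288 genes. PHGDH, the first enzyme of serine synthesis from glucose carbon, had no row under its symbol or under its Ensembl identifier and was not analysed here.

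The samples were ventricular tissue of male Tibetan minipigs, 3 with DAC and 3 with a sham operation in which the chest was opened without constriction, collected 12 weeks after surgery. In the DAC animals, a suture around the descending aorta raised the pressure upstream of it, so the left ventricle worked against a chronic load. Each column of the table is 1 minipig, numbered 1 to 3 for sham and 4 to 6 for DAC, and the values are FPKM, a level scaled to transcript length and to the size of the library. The labels name no batch, and they do not say which ventricle was used.

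Serine is made from a glycolytic intermediate in a short chain of steps by PHGDH, PSAT1 and PSPH, and SHMT2 then moves a carbon unit from serine to folate inside the mitochondrion, where MTHFD2 oxidises it. ASNS makes asparagine from aspartate and takes the nitrogen from glutamine, which GLUL makes from glutamate and ammonia. ALDH18A1 carries out the first step from glutamate to proline, an amino acid abundant in collagen. GOT1 in the cytosol and GOT2 in the mitochondrion interconvert aspartate and glutamate, and in the heart they form part of the malate-aspartate shuttle, which carries reducing equivalents into mitochondria. Several of the genes, among them ASNS, PSAT1 and MTHFD2, are known targets of the transcription factor ATF4.

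The 9 genes spanned levels from 0.283 FPKM (PSPH) to 319 FPKM (GOT1). Over all 6 samples, GOT2 (mean 277 FPKM) and GOT1 (mean 267 FPKM) were at the top, above 99.3% of the genes in the table for GOT2. Their order was not fixed, since GOT2 exceeded GOT1 in 3 of the 6 minipigs. GLUL followed with a mean of 49.4 FPKM and a range from 41.2 to 63.6 FPKM that met neither neighbour. The biosynthetic enzymes of serine, asparagine and proline were far lower. SHMT2 had a mean of 4.60 FPKM, ALDH18A1 of 4.18 FPKM, ASNS of 3.32 FPKM, PSAT1 of 1.81 FPKM, MTHFD2 of 1.04 FPKM and PSPH of 0.616 FPKM. From SHMT2 downwards, the range of each gene overlapped that of the next, although ASNS was above PSAT1 in each of the 6 minipigs.

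**Figure D1:**
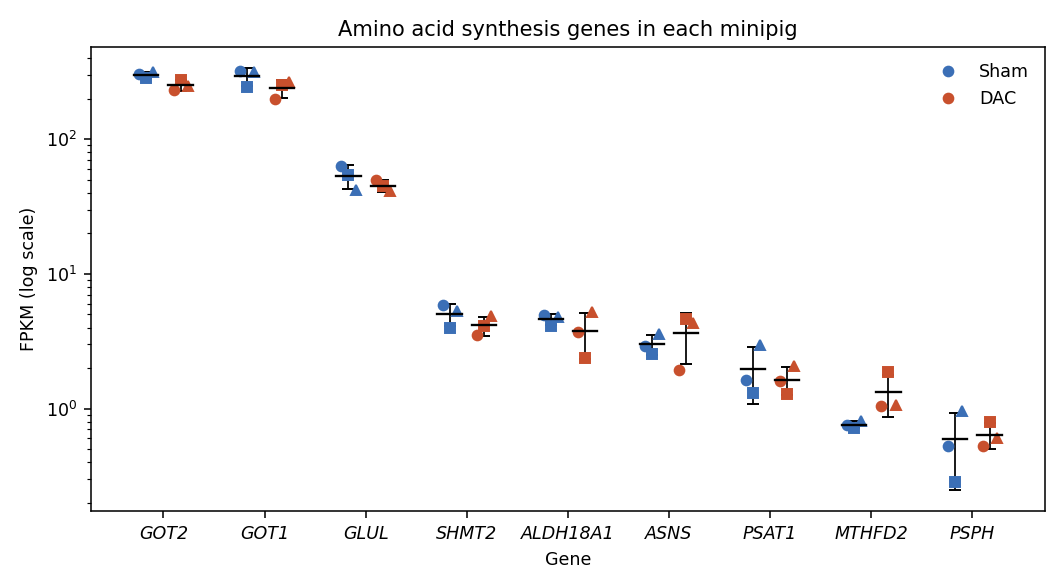
Levels of the 9 genes in FPKM on a log scale, with sham minipigs in blue and DAC minipigs in orange; circle, square and triangle are replicates 1 to 3 (sham) and 4 to 6 (DAC), and bars are the mean and SD of 3 minipigs. GOT2, GOT1 and GLUL sit above 41 FPKM in every minipig and the other genes below 6 FPKM.

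Between the groups, 6 of the 9 genes had a lower mean FPKM in the DAC minipigs, with differences from -15.2% for GLUL to -18.6% for ALDH18A1, and MTHFD2, ASNS and PSPH had a higher one. Together the 9 genes took 0.208% to 0.250% of the summed FPKM in the sham minipigs and 0.175% to 0.196% in the DAC minipigs, a sum that is nearly all GOT2, GOT1 and GLUL and says little about the other genes. The summed FPKM included mitochondrially encoded genes, which took 24.0% to 25.3% of it in the sham and 27.1% to 32.8% in the DAC minipigs. The share of the 9 genes without them was not computed, so the gap between the sham and DAC ranges is not shown to hold without them. Only MTHFD2 and GOT2 were differentially expressed genes (DEGs), defined by an unadjusted P under 0.05 in limma's moderated test on log2(FPKM + 1). Fold changes are given on that log2 scale, which understates the change of low genes. The test covered the 11029 genes that reached 1 FPKM in 3 or more samples, and 8 of the 9 genes passed, PSPH being too low. MTHFD2 passed only through its DAC samples, so its presence among the genes tested depends on its own difference. Upregulated DEGs were 3.25% of all genes tested and downregulated DEGs 5.27%, and the 8 genes held 1 of each. A lower mean on the log2 scale was found for 6 of the 8 genes and for 53.4% of all genes tested. The sham and DAC values did not overlap for 2 of the 8 genes, GOT2 and MTHFD2, and for 14.9% of all genes tested. For MTHFD2 the separation followed from the way it passed the filter. None of the 11029 genes had an adjusted P under 0.05 (limma, Benjamini-Hochberg), where 939 genes or 8.51% had an unadjusted P under 0.05. The median log2 fold change of the 8 genes was -0.22, and that of the 9 without a filter was also -0.22, beside -0.016 over the genes tested and -0.0049 over the whole table.

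**Figure D2:**
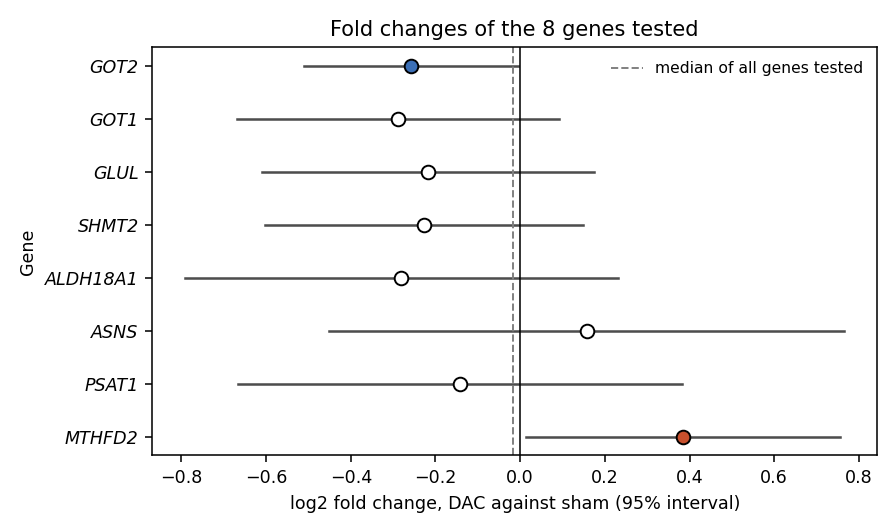
Log2 fold change of DAC against sham for the 8 genes tested, with 95% intervals from limma; blue marks a downregulated and orange an upregulated DEG, and the dashed line is the median of all genes tested. The intervals of GOT2 and MTHFD2 end just short of 0, and the other 6 include it.

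GOT2 (ENSSSCG00000032985, chromosome 6 from 20407198 to 20432068, minus strand) was at 303, 286 and 315 FPKM in the sham minipigs and at 233, 276 and 247 FPKM in the DAC minipigs. Every DAC value lay below every sham value, which was the case for 8.91% of all genes tested. The group means were 301 ± 14.5 FPKM (SD, n = 3) and 252 ± 21.9 FPKM (SD, n = 3). The log2 fold change was -0.26 (standard error 0.11, 95% interval from -0.51 to -0.0063, unadjusted P = 0.0459, adjusted P = 0.585 from limma). The exact permutation P was 0.10, the smallest that 3 minipigs against 3 allow. The call was lost in 8 of 14 alternatives, among them median scaling (-0.23) and the removal of mitochondrially encoded genes (-0.21). Over the 14 alternatives the log2 fold change of GOT2 ranged from -0.33 to -0.16. The mitochondrially encoded genes took 24.0% to 25.3% of the summed FPKM in the sham minipigs and 27.1% to 32.8% in the DAC minipigs. The call was also lost when any sham minipig, DAC replicate 4 or DAC replicate 6 was left out.

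GOT1 (ENSSSCG00000010537, chromosome 14 from 110608430 to 110635874, minus strand) was at 319, 244 and 316 FPKM in the sham minipigs and at 199, 255 and 265.5 FPKM in the DAC minipigs. Sham replicate 2 fell among the DAC values, so the groups overlapped. The log2 fold change was -0.29 (standard error 0.16, 95% interval from -0.67 to 0.092, adjusted P = 0.645 from limma), no smaller than that of GOT2 but with a wider interval. Without sham replicate 2, GOT1 was a downregulated DEG (log2 fold change -0.42). The log2 ratio of GOT2 to GOT1 within each minipig was 0.048 ± 0.158 (SD, n = 3) in the sham group and 0.078 ± 0.167 (SD, n = 3) among the DAC minipigs, a difference of 0.030 with an exact permutation P of 1.

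The aminotransferases work in the shuttle with the malate dehydrogenases and with carriers of the inner mitochondrial membrane. MDH2, the mitochondrial malate dehydrogenase, was at 688, 677 and 719 FPKM in the sham minipigs and at 541, 596 and 604 FPKM in the DAC minipigs. It was a downregulated DEG (log2 fold change -0.26 with a standard error of 0.098, limma adjusted P = 0.563), and its groups did not overlap. The call of MDH2 was lost in 6 of 14 alternatives. The other shuttle genes were chosen for description after their values were seen. The malate and 2-oxoglutarate carrier SLC25A11 averaged 83.7% of its sham mean in the DAC minipigs, the cytosolic MDH1 85.3%, the aspartate and glutamate carrier SLC25A12 85.3% and its homologue SLC25A13 92.4%, beside 83.7% for GOT2, 83.5% for MDH2 and 81.8% for GOT1. Thus each of the 7 shuttle genes had a lower mean FPKM in the DAC group. On the log2 scale each of them except SLC25A13 had a lower mean, beside 53.4% of all genes tested. DAC replicate 4 was the lowest of the 6 minipigs for GOT1, GOT2, MDH1, MDH2 and SLC25A12. DAC replicate 5 was above the sham mean for MDH1 (106%) and SLC25A13 (100.4%), and DAC replicate 6 for SLC25A12 (109%). With 1 minipig left out in turn, the log2 fold change ranged from -0.39 to -0.024 for MDH1 and from -0.44 to -0.039 for SLC25A12. GOT2, MDH2 and SLC25A11 had every DAC value below every sham value, as 8.91% of all genes tested did, and the groups of the other shuttle genes overlapped. SLC25A13 varied most, with 4.58 FPKM in sham replicate 1 and 14.0 and 16.1 FPKM in the other sham minipigs. On the log2 scale its fold change was 0.047, of opposite sign to the difference of the means.

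**Figure D3:**
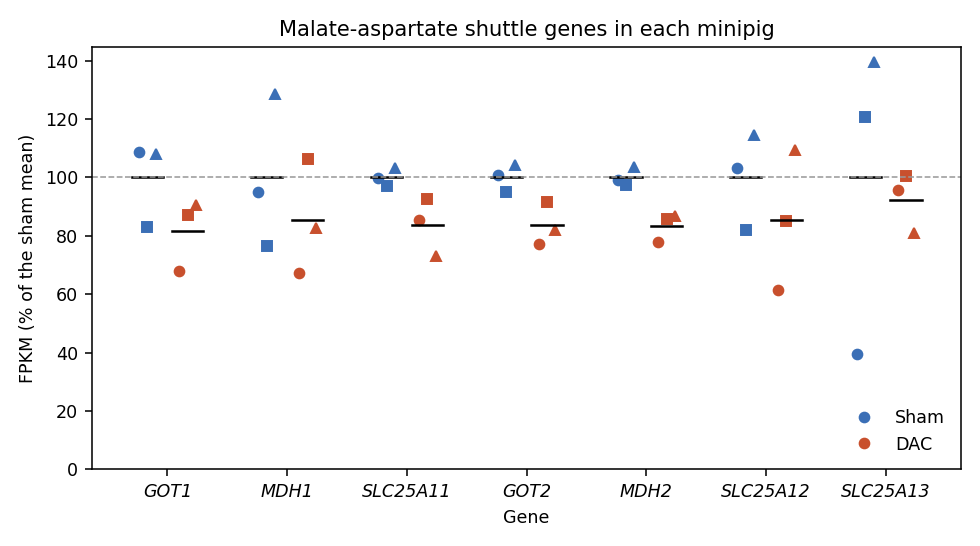
FPKM of 7 malate-aspartate shuttle genes as a percentage of each gene's sham mean, with sham minipigs in blue, DAC minipigs in orange and a black line at the group mean; markers are as in the plot of levels. DAC means lie between 81.8% and 92.4%, and the groups are separate for SLC25A11, GOT2 and MDH2.

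Of the 14 tested genes in the list for aspartate, asparagine and the shuttle, 2 were downregulated DEGs, none was upregulated, 10 had a negative log2 fold change, beside 5.27%, 3.25% and 53.4% of all genes tested, and the median log2 fold change was -0.25. Beside MDH2, the DEG was ASL, which splits argininosuccinate into arginine and fumarate and thereby returns the aspartate carbon. ASL was at 10.4, 12.2 and 14.0 FPKM in the sham minipigs and at 7.34, 8.13 and 8.73 FPKM in the DAC minipigs. Its log2 fold change of -0.53 (limma adjusted P = 0.482) kept an unadjusted P under 0.05 in 14 of 14 alternatives. Without DAC replicate 4 the median of the list was -0.12.

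MTHFD2 (ENSSSCG00000008289, chromosome 3 from 68819612 to 68853067, minus strand) is a mitochondrial folate enzyme that is low in most adult tissues and high in dividing cells. It was at 0.754, 0.719 and 0.805 FPKM in the sham minipigs and at 1.04, 1.86 and 1.07 FPKM in the DAC minipigs. Every DAC value was above every sham value, and DAC replicate 5 stood above the rest. All 3 DAC values reached 1 FPKM and no sham value did. Passing the filter in this way already fixed the separation, and with it the exact permutation P. The 6.01% of all genes tested with such a separation is therefore no measure for MTHFD2. The means were 0.759 ± 0.0432 FPKM (SD, n = 3) and 1.32 ± 0.464 FPKM (SD, n = 3), a ratio of 1.74. The log2 fold change was 0.38 (standard error 0.16, 95% interval from 0.013 to 0.76, unadjusted P = 0.0443, adjusted P = 0.584 from limma), and the exact permutation P was 0.10. The call was lost in 6 of 13 alternatives, among them each sham minipig left out in turn. Without DAC replicate 5 the log2 fold change was 0.23 and the call was lost, and with a pseudocount of 0.1 it was 0.68 and the call was kept. The annotated position of MTHFD2 overlaps MOB1A on the other strand, and whether strand was used in counting is not given in the sources used here. Its listed span was 33456 bases against 14471 bases for the same symbol in RefSeq (Sscrofa11.1), and the effect on its FPKM was not tested. Of 10 fibroblast markers, 6 were upregulated DEGs, beside 3.25% of all genes tested, while DCN (-0.012) and TCF21 (-0.022) had log2 fold changes near 0. The summed level of the 10 markers was 516 to 592 FPKM in the sham and 742 to 825 FPKM in the DAC minipigs. The part of these cells in the MTHFD2 difference was not tested, and in bulk tissue more cells of a type cannot be told apart from more RNA per cell.

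The paralogue MTHFD2L, named after its values were seen, had overlapping groups, with a log2 fold change of 0.0090 (95% interval from -0.27 to 0.29). SHMT2 (ENSSSCG00000037077, chromosome 5 from 22532894 to 22540321, plus strand), the step before MTHFD2, was at 5.87, 3.99 and 5.28 FPKM in the sham minipigs and at 3.53, 4.07 and 4.85 FPKM in the DAC minipigs. The groups overlapped, and the log2 fold change was -0.23 (95% interval from -0.60 to 0.15, adjusted P = 0.708 from limma). SHMT2 stayed lower in the DAC group in 13 of 13 alternatives without reaching an unadjusted P under 0.05. Its cytosolic counterpart SHMT1 was at 5.57, 7.50 and 4.96 FPKM in the sham and at 6.96, 5.54 and 2.81 FPKM in the DAC minipigs. The log2 ratio of SHMT2 to SHMT1 was -0.21 ± 0.484 (SD, n = 3) in the sham and -0.19 ± 0.733 (SD, n = 3) in the DAC group, with an exact permutation P of 1. The Benjamini-Hochberg adjusted exact permutation P was 1 for this ratio and for that of GOT2 to GOT1, over the 3 ratios tested. The position of SHMT2 overlaps NDUFA4L2 on the other strand.

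PSAT1 (ENSSSCG00000005287, chromosome 1 from 231142625 to 231172363, plus strand), the aminotransferase of serine synthesis, was at 1.64, 1.31 and 2.99 FPKM in the sham minipigs and at 1.59, 1.28 and 2.05 FPKM in the DAC minipigs. Its log2 fold change was -0.14 (95% interval from -0.67 to 0.38, adjusted P = 0.875 from limma), and it was 0.088 without sham replicate 3, which held the highest value. PSPH (ENSSSCG00000007748, chromosome 3 from 16877923 to 16907952, plus strand), the phosphatase that releases serine, was at 0.528, 0.283 and 0.962 FPKM in the sham minipigs and at 0.525, 0.797 and 0.602 FPKM in the DAC minipigs. Without a filter, PSPH had a log2 fold change of 0.063 (95% interval from -0.35 to 0.47), and its position overlaps NIPSNAP2 on the other strand. Both genes were highest in sham replicate 3, and neither separated the groups.

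The wider list of serine, glycine and folate metabolism had no DEG among 20 tested genes in limma (0 at an unadjusted P under 0.05), beside 8.51% of all genes tested. Without moderation of the variances it had 0 upregulated and 1 downregulated gene. Its median log2 fold change was -0.051. The smallest P was that of MTRR, which restores the activity of methionine synthase. MTRR was at 3.52, 4.99 and 3.66 FPKM in the sham and at 5.61, 6.61 and 4.54 FPKM in the DAC minipigs, with a log2 fold change of 0.38 (95% interval from -0.010 to 0.77, adjusted P = 0.592 from limma).

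ASNS (ENSSSCG00000015340, chromosome 9 from 77318213 to 77509020, minus strand) was at 2.92, 2.53 and 3.58 FPKM in the sham minipigs. The DAC minipigs held both the lowest and the highest values, with 1.93 FPKM in replicate 4 against 4.65 FPKM in replicate 5 and 4.32 FPKM in replicate 6. The coefficient of variation was 17.6% in the sham and 40.9% among the DAC minipigs. The log2 fold change was 0.16 (95% interval from -0.45 to 0.77, adjusted P = 0.883 from limma). It rested on single animals, since without DAC replicate 4 ASNS was an upregulated DEG (0.46), and without DAC replicate 5 the log2 fold change was -0.016. The listed span of ASNS was 190808 bases against 17950 bases for the same symbol in RefSeq (Sscrofa11.1). The effect of that difference on its FPKM was not tested.

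**Figure D4:**
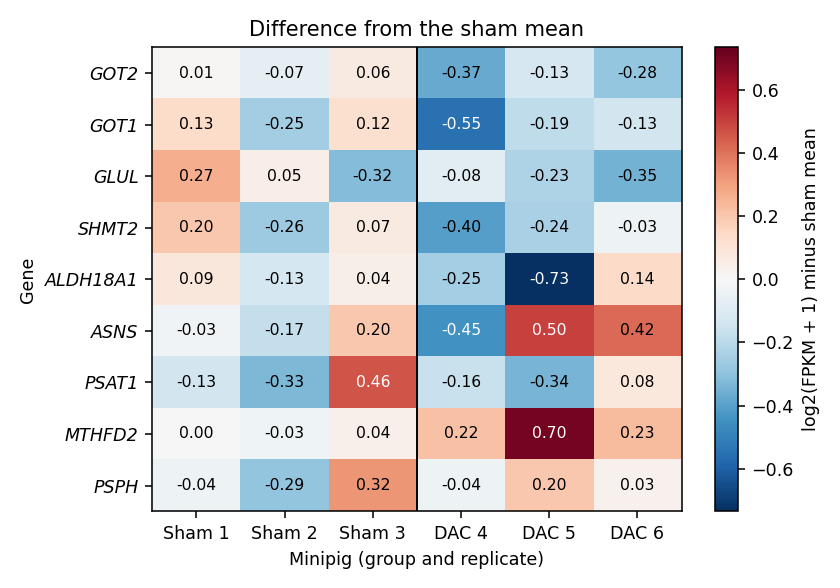
Difference of each minipig from the sham mean in log2(FPKM + 1) for the 9 genes, with genes in rows ordered by level and minipigs in columns; red is higher and blue lower. DAC replicate 4 is lowest for GOT2, GOT1, SHMT2 and ASNS, and DAC replicate 5 is highest for ASNS and MTHFD2 and lowest for ALDH18A1 and PSAT1.

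The DAC minipigs did not move together across the set. Replicate 4 had the lowest value of the 6 minipigs in 4 genes, namely GOT2, GOT1, SHMT2 and ASNS. Replicate 5, which also had the highest share of mitochondrially encoded transcripts, was highest for MTHFD2 and ASNS and lowest for PSAT1 and ALDH18A1. Sham replicates 1 and 3 were each highest in 3 genes.

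ATF4, which drives ASNS, PSAT1 and MTHFD2 under amino acid shortage, was looked at after its values were seen. It was at 37.7, 30.9 and 40.7 FPKM in the sham and at 26.8, 32.8 and 27.8 FPKM in the DAC minipigs, a log2 fold change of -0.31 (95% interval from -0.64 to 0.017). Of the 23 tested genes in the list for ATF4 and the integrated stress response, 3 were downregulated DEGs and none was upregulated, beside 5.27% and 3.25% of all genes tested, with a median log2 fold change of -0.034. The DEGs were transcription factors of the basic leucine zipper family. JDP2 was at 13.6, 15.3 and 16.4 FPKM in the sham and at 7.33, 6.51 and 11.97 FPKM in the DAC minipigs (log2 fold change -0.78, adjusted P = 0.5001 from limma). CEBPB fell from 91.9, 86.7 and 77.9 FPKM to 68.8, 40.8 and 52.3 FPKM (log2 fold change -0.68, adjusted P = 0.5001 from limma). ATF5 had a log2 fold change of -0.57 with overlapping groups (adjusted P = 0.546 from limma). The call held in 14 of 14 alternatives for JDP2 and for CEBPB and was lost in 5 of 14 for ATF5. Among 18 tested genes of the cytosolic aminoacyl-tRNA synthetases, which load amino acids on tRNA, and of their scaffold proteins AIMP1 and AIMP2, the median log2 fold change was 0.016. CARS1, the cysteine enzyme, was the only DEG there, a share of 5.56% beside 8.51% of all genes tested. CARS1 was at 4.89, 4.04 and 4.74 FPKM in the sham and at 2.49, 2.75 and 2.58 FPKM in the DAC minipigs (log2 fold change -0.62, adjusted P = 0.335 from limma).

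ALDH18A1 (ENSSSCG00000010495, chromosome 14 from 107170689 to 107221215, minus strand) was at 4.95, 4.13 and 4.76 FPKM in the sham minipigs and at 3.71, 2.37 and 5.19 FPKM in the DAC minipigs. The DAC values spread on both sides of the sham values, and the log2 fold change was -0.28 (95% interval from -0.79 to 0.23, adjusted P = 0.726 from limma). Without DAC replicate 6, ALDH18A1 was a downregulated DEG (log2 fold change -0.49). PRODH, which breaks proline down, had no row in the table, so its planned ratio with ALDH18A1 was not computed.

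GLUL (ENSSSCG00000015545, chromosome 9 from 123751548 to 123762547, minus strand), the glutamine synthetase, was at 63.6, 54.6 and 42.0 FPKM in the sham minipigs and at 50.0, 44.8 and 41.2 FPKM in the DAC minipigs. Sham replicate 3 lay within the DAC range. The log2 fold change was -0.22 (standard error 0.17, 95% interval from -0.61 to 0.18, adjusted P = 0.725 from limma). Without sham replicate 3, GLUL was a downregulated DEG with a log2 fold change of -0.38.

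GLUL is known to be induced by glucocorticoids, and 3 of 9 tested glucocorticoid-induced genes were downregulated DEGs, beside 5.27% of all genes tested, with a median log2 fold change of -0.34. Their summed level was 329 to 340 FPKM in the sham and 265 to 282 FPKM in the DAC minipigs. FKBP5 was at 26.9, 31.0 and 31.5 FPKM in the sham and at 14.1, 18.4 and 9.85 FPKM in the DAC minipigs (log2 fold change -1.06, adjusted P = 0.379 from limma). CEBPD (-0.44) and ERRFI1 (-0.45) were the other DEGs of that list. Of the genes not called, DUSP1 was higher (0.15) and SGK1 was near 0 (-0.020). TSC22D3, PER1, ZBTB16 and KLF9 were lower, from -0.23 for TSC22D3 to -0.37 for KLF9. The call held in 14 of 14 alternatives for FKBP5 and was lost in 2 of 14 for CEBPD and in 6 of 14 for ERRFI1, and with 1 minipig left out in turn the list held 1 to 4 downregulated DEGs. The part of this in the GLUL values was not tested. Of 13 tested genes for the use of glutamine and glutamate, GCLM, the regulatory subunit of the enzyme that starts glutathione synthesis, was the only DEG. This was a share of 7.69%, beside 8.51% of all genes tested. GCLM was at 4.06, 4.59 and 4.60 FPKM in the sham and at 3.40, 2.38 and 3.19 FPKM in the DAC minipigs (log2 fold change -0.45, adjusted P = 0.508 from limma).

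For amino acid transport, 24 genes were listed, 19 had a row and 16 were tested. Of the 16 genes, SLC38A3 and SLC1A3 were downregulated DEGs and SLC43A2 was upregulated, with a list median of -0.018. The share of DEGs was 18.75%, beside 8.51% of all genes tested. SLC38A3, a glutamine, asparagine and histidine transporter, was at 6.49, 4.67 and 4.53 FPKM in the sham and at 2.48, 3.73 and 4.18 FPKM in the DAC minipigs (log2 fold change -0.49, adjusted P = 0.582 from limma). The glutamate and aspartate transporter SLC1A3 had a log2 fold change of -0.30 (adjusted P = 0.584 from limma). SLC43A2, which carries large neutral amino acids, was at 1.53, 1.41 and 1.52 FPKM in the sham and at 2.64, 2.25 and 1.82 FPKM in the DAC minipigs (log2 fold change 0.37, adjusted P = 0.546 from limma). In the alternatives, the call was lost in 7 of 13 for SLC1A3, in 4 of 13 for SLC38A3 and in 2 of 13 for SLC43A2. Leaving out any of sham replicates 1 and 2 and DAC replicates 5 and 6 ended that of SLC1A3, leaving out sham replicate 1 or DAC replicate 4 or 5 that of SLC38A3, and leaving out sham replicate 2 or DAC replicate 4 that of SLC43A2. Over the 7 pathway lists together, 2 of 115 tested genes were upregulated and 9 downregulated DEGs, which is 9.57% beside 8.51% of all genes.

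**Figure D5:**
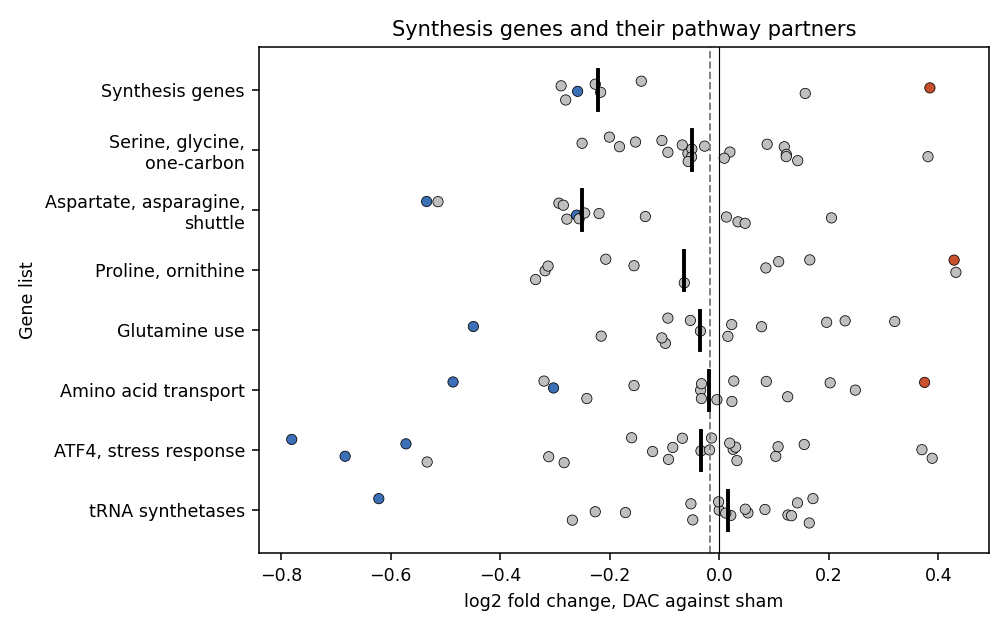
Log2 fold change of DAC against sham for each tested gene of the synthesis set and of the 7 pathway lists; each point is a gene, blue and orange mark downregulated and upregulated DEGs, black bars are list medians and the dashed line is the median of all genes tested. The medians of the synthesis set (-0.22) and of the aspartate and shuttle list (-0.25) lie lower than those of the other lists, which are between -0.064 and 0.016.

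Markers of the muscle cells themselves were read beside the abundant genes. The 9 cardiomyocyte markers in the table summed to 14899 to 15515 FPKM in the sham and 14088 to 16979 FPKM in the DAC minipigs, with 1 DEG, RYR2, lower in the DAC group. The groups overlapped for RYR2, and its call was lost in 7 of 14 alternatives. MYL2 and TNNT2 had the largest sham means (4525 and 4387 FPKM), so the sum says little about the other markers. MYH6, PLN and TTN had no row. Of the other marker lists, 10 endothelial genes held 2 upregulated and 2 downregulated DEGs (summed level 155 to 215 FPKM in sham, 136 to 204 FPKM in DAC). Of 10 smooth muscle and pericyte genes, 1 was upregulated (199 to 233 and 220 to 248 FPKM), and of 9 tested leukocyte genes 1 was downregulated (70.9 to 84.1 and 61.8 to 96.2 FPKM). DEGs were 40% of the endothelial genes, 10% of the smooth muscle and pericyte genes, and 11.1% of the leukocyte and of the cardiomyocyte genes tested. Over all genes tested the share was 8.51%. With 1 minipig left out in turn, the endothelial list held 0 to 3 upregulated and 2 to 3 downregulated DEGs. Red blood cell and adipocyte markers had 1 and 2 tested genes and no DEG (0 at an unadjusted P under 0.05 in limma, and 0 without moderated variances).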

How the data were processed

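The authors deposited a single table of FPKM per gene, with a column for each of 3 sham and 3 DAC minipigs. The submitters' processing notes name HISAT2 and the build susScr11, on which positions are given. The program that made the FPKM and its handling of strand are not given in the sources used here. Every listed gene had at least 0.500 FPKM in its highest sample. Of its genes, 12476 were protein-coding and 812 were long non-coding RNAs. Symbols of 519 genes that had none were taken from an identifier table. The summed FPKM was 281377 to 308771 per sample. Depth is unknown: among at least 6520 low genes compared, at most 6 shared a log2 ratio between 2 samples, so no whole reads could be recovered, and precision rests on the spread between minipigs.

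Log2(FPKM + 1) was compared with limma 3.58.1 (R 4.3.3, trend, moderated variance) for the genes that reached 1 FPKM in 3 or more of 6 samples, with P adjusted by Benjamini-Hochberg over all 11029. Single values were also compared by a two-sided exact permutation test over the 20 splits. The steps were tested on simulated data. Named genes were the members, up to 4 DEGs with the smallest P of each list (or the 1 gene with the smallest P), and the ratio genes. Results that need some withheld items are not reported here. Members and lists were chosen with earlier results of these data known. Tried as alternatives were the whole table without filter, a minimum of 5 FPKM, a pseudocount of 0.1, median scaling, quantile normalization, removal of mitochondrially encoded genes, the variance of each gene on its own, sample weights, and each sample left out. Figures used matplotlib 3.10.9.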

Additional observations from a re-analysis of the deposited data

How the results depend on the processing

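The median log2 fold change of the members stayed below 0 in every alternative, between -0.30 and -0.13 with 1 sample left out. Of members called, none was upregulated with a minimum of 5 FPKM (0 of 3 tested), after quantile normalization (0) or with the variance of each gene on its own (0). None was downregulated after median scaling (0), quantile normalization (0) or removal of mitochondrially encoded genes (0). With 1 sample left out in turn, 0 to 2 members were upregulated and 0 to 1 downregulated. Among all genes, 241 to 470 were then upregulated and 359 to 674 downregulated, and in the pathway lists 1 to 5 and 7 to 11. A minimum of 5 FPKM gave 165 upregulated genes in all, and 0 upregulated and 5 downregulated genes in the pathway lists. The variance of each gene on its own gave 4 upregulated genes there. The share of downregulated DEGs, 61.9% (358 up, 581 down), was 44.8% (502 up, 408 down) without mitochondrially encoded genes, and 71.5% (414 down) with a minimum of 5 FPKM. SLC25A13 reversed without sham replicate 1, to -0.46, and ranged up to 0.35 without sham replicate 3. No gene had an adjusted P under 0.05 except 1 without sham replicate 3 and 1 without DAC replicate 6. No paired analysis was made because the groups are different minipigs, which the study assigned at random. With 3 minipigs a group, differences of the size of the members' intervals could not be resolved, and the minipigs' FPKM carry no depth.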
